A study of Homo sapiens with 6 samples.

Results

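Cassette exon events of RNA helicase and core spliceosome genes were examined in MDA-MB-231-BrM2a cells with and without induced RBM47. MDA-MB-231-BrM2a is a brain-metastatic derivative of MDA-MB-231, an established human triple-negative breast cancer cell line. A cassette exon is an exon that is either kept between its flanking exons or skipped, and the inclusion rate is the fraction kept. Events were chosen by gene symbol alone, as those of the DDX and DHX genes, the SF3A and SF3B subunits, the SNRP, numbered PRPF and U2AF genes, SF1, CLK1 to CLK4 and SRPK1. The choice gave the 210 events in 72 genes described here, of 24725 events in 7969 genes in the table. There were 98 events in 27 DDX genes, 39 in 14 DHX genes, 9 in 4 SF3 genes, 10 in U2AF1, U2AF1L4, U2AF2 and SF1, 15 in 9 SNRP genes, 16 in 9 PRPF genes and 23 in the 5 kinase genes. A symbol does not make a helicase, since DDX26B is a relative of an Integrator subunit and was kept under its name in the table.

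The 3 control cultures carried the empty vector pRetroX-Tight-Pur and were not clonal. The 3 RBM47 cultures came from wt#10, a clone grown from 1 sorted cell, with Flag-tagged wild-type RBM47 under a doxycycline-inducible promoter. All 6 cultures received doxycycline at 10 ng/ml for 3 days, so the drug was shared by both groups. Because the RBM47 cells were 1 clone and the control cells were not, an effect of RBM47 and a difference of that clone cannot be told apart. The labels do not say whether the 3 samples of a group were grown separately from the start, so the tests measure the spread between these samples. RBM47 itself had 0 rows in the table, and rates of exon inclusion carry no marker levels, so neither the transgene nor the cell identity was checked. In cultures measured as a whole, less inclusion in every cell and skipping in fewer cells cannot be told apart.

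Introns are marked for removal by recognition of their ends. SF1 binds the branch point, U2AF2 the pyrimidine tract and U2AF1 the AG at the intron end, after which the U2 particle with the SF3A and SF3B complexes takes over the branch point. SNRP genes encode the Sm ring and particle-specific proteins of the small nuclear ribonucleoproteins, and PRPF genes encode further spliceosome components. DEAD-box (DDX) and DEAH-box (DHX) proteins use ATP to remodel RNA and its complexes, in the spliceosome and in export, translation, ribosome assembly and the sensing of viral RNA. CLK kinases and SRPK1 phosphorylate the SR proteins that guide splice site choice. Several genes of this machinery are known to regulate their own messages through alternative exons. RBM47 is an RNA-binding protein.

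Exons of CLK1, CLK4 and U2AF1 are shown first, each 5′ to 3′ on its own strand, with the exon in capitals. The last 20 bases of the intron before it and the first 10 of the intron after it are in lower case. The sequences were read from GRCh37 where exactly 1 annotated exon of the gene had neighbours at the outer span of the event. All lie on the minus strand, and every intron shown ends in ag before the exon and begins with gt after it. CLK1, chr2:201724838-201724958, and CLK4, chr5:178044335-178044455, hold corresponding exons of paralogous kinases, the former with the largest difference of these events. U2AF1 exon a, chr21:44520553-44520649, and U2AF1 exon b, chr21:44521466-44521562, are neighbouring exons of equal length.
CLK1: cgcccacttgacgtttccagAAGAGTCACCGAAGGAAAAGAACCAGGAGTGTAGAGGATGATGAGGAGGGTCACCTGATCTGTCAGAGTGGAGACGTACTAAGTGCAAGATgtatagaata
CLK4: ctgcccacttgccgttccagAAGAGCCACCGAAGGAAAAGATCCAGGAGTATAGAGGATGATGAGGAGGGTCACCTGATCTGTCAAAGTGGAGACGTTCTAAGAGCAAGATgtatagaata
U2AF1 exon a: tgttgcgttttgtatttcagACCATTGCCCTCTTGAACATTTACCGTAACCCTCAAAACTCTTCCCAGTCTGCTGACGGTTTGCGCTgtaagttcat
U2AF1 exon b: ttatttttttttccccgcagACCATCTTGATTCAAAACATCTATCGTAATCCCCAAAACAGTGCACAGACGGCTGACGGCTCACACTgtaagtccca
The CLK1 and CLK4 exons have 91 bases each, are coding, and shift the frame when skipped. They were identical at 85 of 91 positions (93.4%), and their 10 shown downstream intron bases are the same letters. The U2AF1 exons have 67 bases each and were identical at 44 of 67 positions (65.7%).

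Most of these exons were close to fully included. The mean rate over the 6 samples was above 0.9 in 134 events, below 0.1 in 40 and from 0.1 to 0.9 in 36. The last share was 17.1%, against 24.3% of all events. In 30 events every sample had a rate of 1, and in 1 event every sample had a rate of 0. The median difference (RBM47 minus control) was 0, as it was over all events, and the median size of the difference was 0.00526 against 0.0114 over all events. The rate was higher with RBM47 in 104 events, lower in 75 and equal in 31, against 10363, 10562 and 3782 over all events. These are counts of rows, and 76 of the 210 share outer ends and skipping reads with another row. The plot of group means shows all 210 points between the lines of a 0.2 difference.

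**Figure D1:**
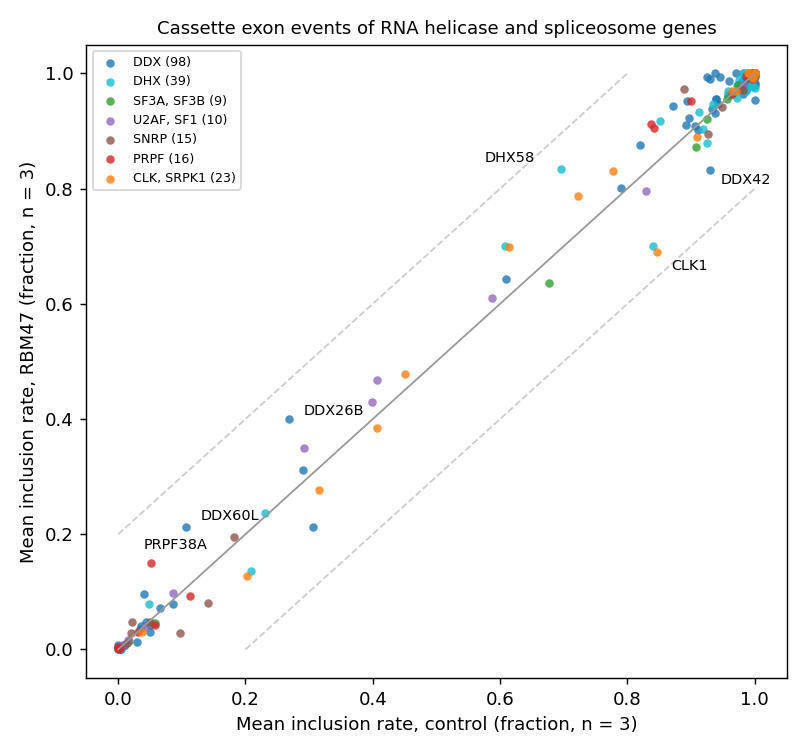
Mean inclusion rate (fraction) of each of 210 events in control (x axis) and RBM47 cells (y axis), n = 3 each, coloured by gene group with its number of events, with equality drawn solid and differences of 0.2 dashed. Points crowd at both ends of the diagonal, and CLK1 (0.846 to 0.690) lies nearest to a dashed line.

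Of these events, 0 passed the criteria of the study's methods (Fisher's exact p of at most 0.05 on summed reads, at least 10 reads and a difference of at least 0.2). Over all events 1.40% passed, 151 higher and 196 lower. The Fisher criterion alone was met by 31 of the 210 events (14.8%), against 14.4% of all events. Fisher's exact test works on reads added up over a group and takes no account of how its cultures vary, so the rates of the 6 samples were also tested with limma. That test covered the 5999 events whose mean rate was 0.1 to 0.9, and 36 of them belonged to these genes, with Benjamini-Hochberg adjustment over the 5999. An adjusted p under 0.05 together with a 0.2 difference was reached by 0 of the 36 events in limma, against 1.53% of all tested events. Without the minimum difference, 1 event, in DDX42, passed, against 2.23% of all tested events. An unadjusted limma p under 0.05 was seen in 4 of the 36 events, against 12.0% of all tested events. In 6 of the 36 the control and RBM47 samples stood apart with no overlap, 16.7% against 17.8% in the whole table. The shares with a low Fisher p and with groups apart lay near those of the whole table. The number of reads behind an event, summed over both groups, ran from 42 to 35454 with a median of 1314, against a median of 665 over all events.

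**Figure D2:**
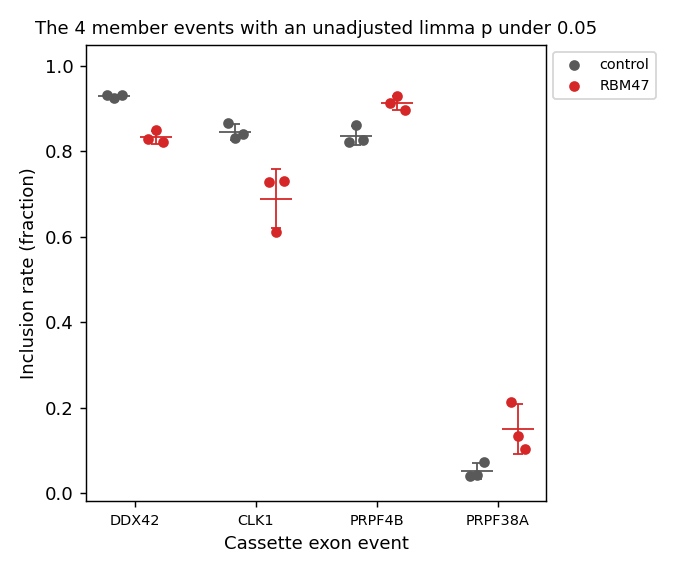
Inclusion rate (fraction) in each culture for the 4 events with an unadjusted limma p under 0.05, with points for samples and bars for the mean ± SD (n = 3). DDX42 and CLK1 were lower in all 3 RBM47 cultures than in any control culture, and PRPF4B and PRPF38A were higher.

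Among the DEAD-box genes, 8 of 98 events were in the tested range and 71 had a mean above 0.9. DDX42, a helicase that works beside SF3B, had the event with an adjusted p under 0.05, which fell with RBM47. It spans chr17:59229135-59231708 in the table, and no single annotated exon matched it. The control rates were 0.931, 0.926 and 0.932, and the RBM47 rates were 0.828, 0.850 and 0.821. The difference was -0.0967, and -0.0907 from summed reads once each including read is counted as 1 of 2 junctions, with 46 skipping reads of 1364 in control and 67 of 792 in RBM47 cells. The limma adjusted p was 0.0338, and it lay between 0.0543 and 0.147 when any 1 of the 6 samples was left out, so every omission ended the call. A second DDX42 row has the same outer ends and skipping reads with a rate near 0. Another DDX42 event, at 0.290 ± 0.0477 and 0.312 ± 0.101, did not differ beyond the spread of the samples.

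The other tested DEAD-box events rested on fewer reads. DDX60L, a relative of an interferon-induced antiviral helicase, had an event at 0.111, 0.126 and 0.0833 in control and 0.178, 0.3 and 0.159 in RBM47 cells, on 110 and 157 reads. The groups did not overlap and the limma adjusted p was 0.574. Another DDX60L event on 37 and 36 reads went from 0.306 ± 0.0238 to 0.212 ± 0.189, with RBM47 replicate 2 at 0.273 and RBM47 replicate 3 at 0. DDX19A and DDX19B encode near-identical helicases of messenger RNA export, so their reads may be shared. DDX19B went from 0.820 ± 0.0451 to 0.876 ± 0.0262 and a row named DDX19A from 0.790 ± 0.0669 to 0.801 ± 0.0554, with limma adjusted p values of 0.591 and 0.972. That row starts at chr16:68907372 in the table, inside DDX19B rows that end at 68907507. The DDX19A rows away from this region start at 68938308 or later, so the gene behind the row was not settled. DDX26B went from 0.268 ± 0.150 to 0.400 ± 0.116 on 108 and 43 reads, a difference of 0.132 within the spread of the samples (limma adjusted p = 0.717). DDX11, a DNA helicase with near-identical copies elsewhere in the genome, was singled out after its values were seen. In 4 of its 9 rows, all above the tested range, the samples of the groups did not overlap. The share was 6.65% over all events with a mean above 0.9, a range that leaves out the DDX11 rows at 0.0405 and 0.626. The group means of the 4 rows went from 0.872 to 0.944, 0.930 to 0.991, 0.925 to 0.993 and 0.945 to 0.994. The last 2 share ends and skipping reads. The other 5 rows overlapped, and in none of the 9 was the Fisher p under 0.05 after adjustment. DDX5, DDX3X, DDX24 and DDX47 had every event at a mean above 0.9. Both DDX17 rows share ends and skipping reads and had rates near 0, below the tested range. Their read totals gave other rates, from 0.256 to 0.110 and from 0.268 to 0.112. The Fisher p values adjusted over all events were 2.2e-08 and 2.18e-09, and the cause of the gap between rates and totals was not tested.

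Of the 39 DEAH-box events, 6 were in the tested range. In 0 of these 6 were the groups apart, against 17.8% of all tested events. DHX30, which serves the mitochondrial ribosome, had 3 of the 6. Its deepest tested event, on 134 and 106 reads, had rates of 0.241, 0.163 and 0.224 in control and 0.08, 0.2 and 0.127 in RBM47 cells (limma adjusted p = 0.715). The other two rested on 34 and 15 and on 29 and 13 reads, and held samples at a rate of 1. DHX33, a helicase linked to ribosomal RNA synthesis, had 0.617, 0.587 and 0.621 in control and 0.542, 1 and 0.561 in RBM47 cells, so the higher RBM47 mean rested on replicate 2. In summed reads the difference was -0.0194, the opposite sign. DHX58, a sensor of viral RNA, went from 0.695 ± 0.112 to 0.833 ± 0.144 on 32 and 29 reads (limma adjusted p = 0.727). DHX34, a factor of nonsense-mediated decay, lay at 0.230 ± 0.0226 and 0.236 ± 0.0577. The spliceosomal helicases DHX8, DHX15 and DHX38 had their events above 0.9 or below 0.1.

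Of the 16 PRPF events, 4 were tested and 0 passed the adjusted limma test. PRPF4B, a kinase that acts as the tri-snRNP joins, had an event at 0.822, 0.862 and 0.826 in control and 0.914, 0.929 and 0.896 with RBM47. The groups did not overlap, and the difference of 0.0762 had a limma adjusted p of 0.185. A row with the same outer ends and skipping reads gave 0.893, 0.917 and 0.892 against 0.951, 0.964 and 0.943, so the 2 rows are not separate evidence. Both matched the same 77-base exon at chr6:4062791-4062867 (GRCh37), which the annotation places in transcripts marked for nonsense-mediated decay. From summed reads the difference of the first row was 0.0382. PRPF38A, a spliceosome protein, had rates of 0.0395, 0.0429 and 0.0725 in control and 0.214, 0.133 and 0.102 with RBM47. The difference of 0.0977 was in the same direction in summed reads (0.0969), and its limma adjusted p was 0.362. PRPF18, which acts in the second step of splicing, had a 141-base coding exon at 0.842 ± 0.0637 and 0.905 ± 0.0353 (SD, n = 3, limma adjusted p = 0.504), with overlapping samples. A second PRPF18 event lay at 0.113 ± 0.0217 and 0.0920 ± 0.0454. PRPF8, PRPF19, PRPF3, PRPF6, PRPF38B and PRPF39 had all their events at means above 0.9 or below 0.1.

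Of the 10 events of U2AF1, U2AF1L4, U2AF2 and SF1, 5 were tested and 0 passed the adjusted limma test. U2AF1 exon b had rates of 0.281, 0.323 and 0.271 in control and 0.376, 0.413 and 0.258 in RBM47 cells on 2614 and 1892 reads. RBM47 replicate 3 lay under all control samples, and the difference of 0.0575 had a limma adjusted p of 0.633. A row matched to U2AF1 exon a had 0.569, 0.588 and 0.605 against 0.642, 0.569 and 0.621 on 3533 and 2891 reads, a difference of 0.0236 (limma adjusted p = 0.777). A second row with the same outer ends and skipping reads matched the same exon and had a mean of 0.0919, so it is not settled which of these rates belongs to exon a. In the rows of exons a and b the other exon of the pair is a flanking exon of the event, and the annotated transcripts that join them are marked for nonsense-mediated decay, while each exon is coding in another, protein-coding transcript. U2AF1L4, a paralog of U2AF1, went from 0.407 ± 0.0644 to 0.467 ± 0.0778 in its 67-base exon and from 0.829 ± 0.0990 to 0.797 ± 0.0470 in its 63-base exon. SF1 had an event at 0.379, 0.438 and 0.378 in control and 0.444, 0.410 and 0.436 in RBM47 cells on 1570 and 1638 reads, with overlapping samples (limma adjusted p = 0.710). The single U2AF2 event had a mean of 0.00806.

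**Figure D3:**
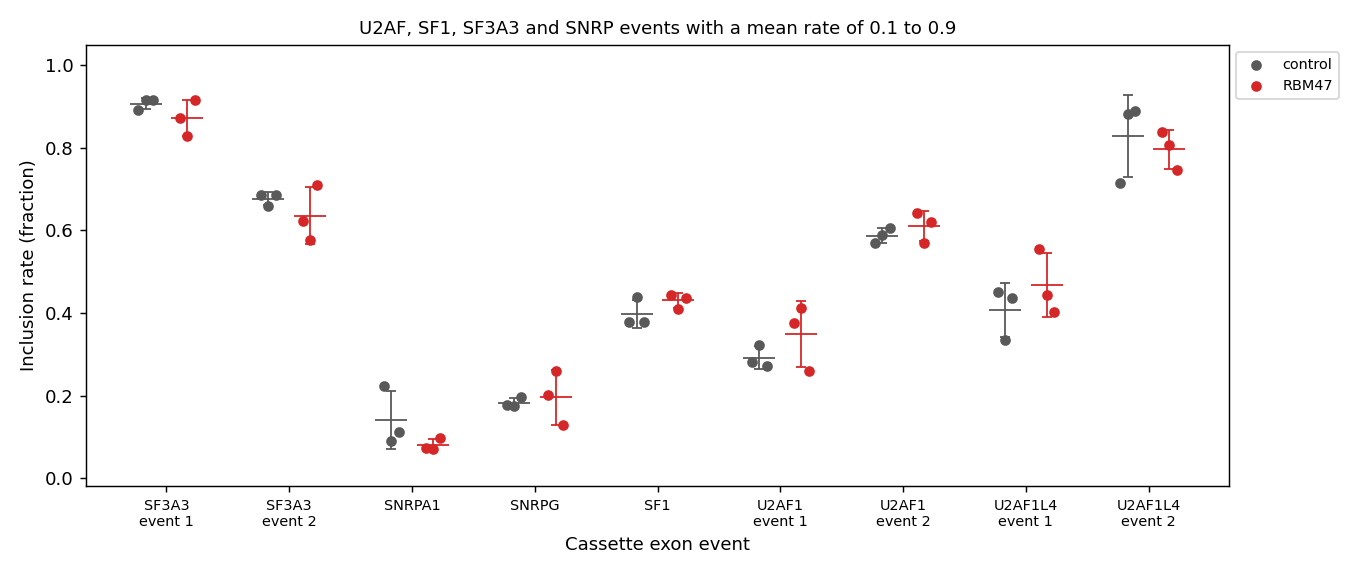
Inclusion rate (fraction) in each control and RBM47 culture for the tested events of SF3A3, SNRPA1, SNRPG, SF1, U2AF1 and U2AF1L4, with points for samples and bars for the mean ± SD (n = 3). Events of a gene are ordered by limma p, U2AF1 event 1 matched exon b and event 2 exon a, and the samples of the groups overlap in every event.

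Of the 9 SF3 events and the 15 SNRP events, 2 each were tested, and 0 passed the adjusted limma test. SF3A3, a subunit of SF3A, had 2 tested rows with the same outer ends and skipping reads. The deeper went from 0.907 ± 0.0133 to 0.872 ± 0.0433 on 717 and 502 reads, and the other from 0.677 ± 0.0153 to 0.636 ± 0.0685, with limma adjusted p values of 0.674 and 0.871. SF3B1, the branch point subunit of SF3B, had 2 events with means of 0.0156 and 0.977. SNRPG, an Sm ring protein, lay at 0.182 ± 0.0123 and 0.195 ± 0.0656 on 1155 and 1452 reads. SNRPA1, a U2 protein, had an 80-base coding exon at chr15:101826419-101826498 (GRCh37) with rates of 0.222, 0.0909 and 0.111 in control and 0.0725, 0.0714 and 0.0980 in RBM47 cells. Its limma adjusted p was 0.661. Its read totals gave other rates, 170 including and 26 skipping reads for control and 157 and 81 for RBM47, a difference of -0.274 from 0.766. The including totals can hold reads that the rates leave out, as in 4 events of these genes in which every control rate was 0 beside including reads in control. The rate from control totals differed by over 0.1 from the control mean in 14 of the 210 events, and the cause was not tested.

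CLK1 had the largest difference among the kinases. Its exon at chr2:201724848-201724938 (GRCh37) lies in the event chr2:201432647-201434433 of the table. The control rates were 0.867, 0.831 and 0.841, and the RBM47 rates were 0.729, 0.610 and 0.730. All RBM47 samples lay below all control samples, and the mean went from 0.846 ± 0.0187 to 0.690 ± 0.0688 (SD, n = 3), a difference of -0.157. Its size was under the 0.2 of the study criteria, and the limma adjusted p was 0.0666. Summed reads gave -0.136, with 52 skipping reads of 1222 in control and 77 of 629 in RBM47 cells (Fisher p adjusted over all events 9.32e-08). The rates of this event were not those printed in the same row of the table, and were taken from the row whose rates averaged to both averages of the event. The same holds for both DDX17 rows, the DDX42 event with the adjusted p under 0.05 and the row sharing its ends, the second PRPF4B row, the SF1 event, U2AF1 exon b, the U2AF1 row with the higher rate for exon a, and SRPK1.

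The corresponding CLK4 exon, with 91 bases, had groups that overlapped. It was matched to 2 rows that share ends and skipping reads, and it is not settled which of the 2 belongs to it. The first had 0.878, 0.731 and 0.722 in control and 0.895, 0.778 and 0.821 in RBM47 cells, and the second had 0.787, 0.541 and 0.512 against 0.805, 0.6 and 0.690. The limma adjusted p values were 0.769 and 0.777. The difference between the responses of CLK1 and CLK4 was not tested. Another CLK4 event, on 158 and 116 reads, had 0.217, 0.226 and 0.161 in control and 0.148, 0.0847 and 0.149 in RBM47 cells. These groups did not overlap, the difference was -0.0743 and the limma adjusted p was 0.673. A further CLK4 event on 40 and 18 reads ran from 0.167 to 0.538 within the control samples alone.

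All 4 CLK2 events were mid-range, and in each the groups overlapped. They went from 0.722 ± 0.0567 to 0.787 ± 0.0970, from 0.910 ± 0.0229 to 0.889 ± 0.0290, from 0.450 ± 0.0460 to 0.478 ± 0.0383 and from 0.407 ± 0.0984 to 0.384 ± 0.0720. The last 2 share ends and skipping reads and match candidate exons of 85 and 88 bases with 1 common end. The 7 CLK3 events had means of 0.968 to 1, and the single SRPK1 event had a mean of 0.995.

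**Figure D4:**
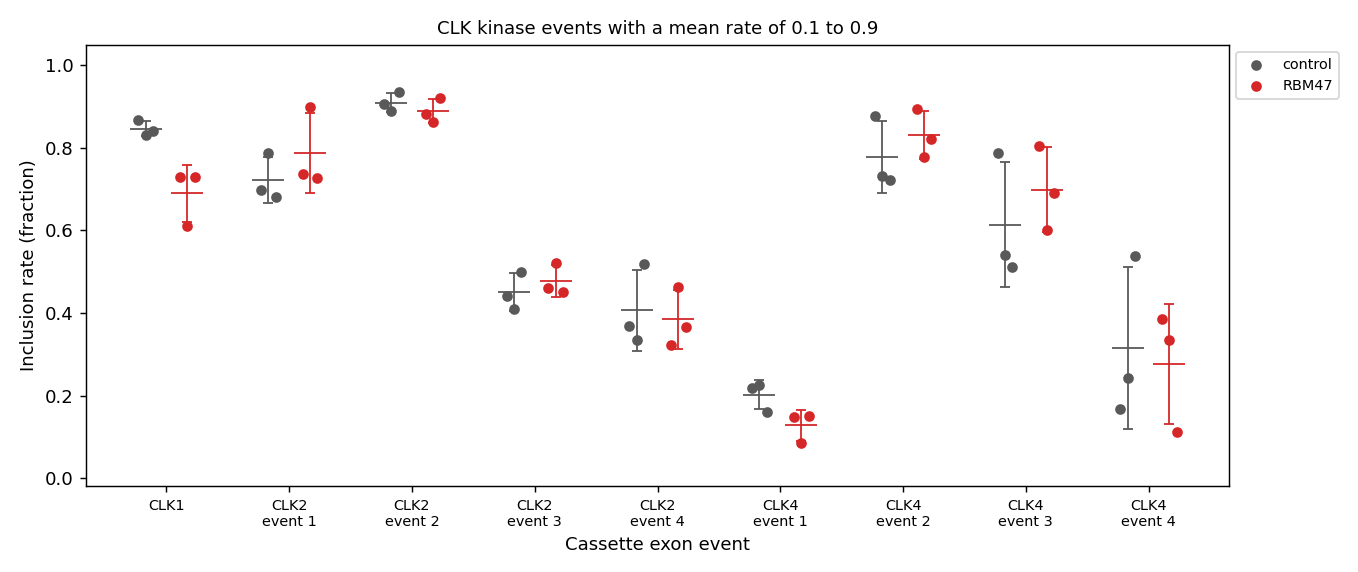
Inclusion rate (fraction) in each control and RBM47 culture for the 9 tested events of CLK1, CLK2 and CLK4, ordered by limma p within a gene, with points for samples and bars for the mean ± SD (n = 3). CLK1 and CLK4 event 1 have groups that do not overlap, both lower with RBM47. CLK4 events 2 and 3 are the rows matched to its 91-base exon.

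Sequence features of the exons were described without a test. Of the 210 events, 119 matched exactly 1 annotated exon, and 87 of these shared their ends with no other row. The median length was 111 bases, against 107 over the 9025 such events of the whole table. Their length was a multiple of 3 in 33 (37.9%), against 46.4% over all. Among those with a mid-range rate it was a multiple of 3 in 4 of 13, against 57.2% over all, and 5 of the 13 (38.5%) were found in transcripts annotated as nonsense-mediated decay, against 10.4% over all. These few exons include related ones of the paralogs U2AF1 and U2AF1L4. Among them, U2AF1 exon b and the 67-base U2AF1L4 exon are coding in another, protein-coding transcript. The 66 whole coding exons made up most of the 87.

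Reads over these events were a further readout, given per group with no replicates and no test. They are junction reads of the listed events and not a measure of gene level. The sum was 339589 in control and 292125 in RBM47 cells, a ratio of 0.860, against 0.910 over all events. The ratio was under 0.5 in 20 events (9.52%), against 12.0% of all events. Over all its events a gene had a ratio under 0.5 in 6 of 72 genes, and the like share over all genes of the table was not counted. These were SF3B1 with 3032 and 1048 reads, DDX3X with 7332 and 3247, DHX9 with 1684 and 747, PRPF39 with 435 and 135, DHX33 with 563 and 277 and SNRPN with 184 and 48. The highest ratios were those of DDX19B (1.85), DHX38 (1.54) and DDX19A (1.42, with rows next to DDX19B included), and 26 genes had a ratio above 1. Differences in inclusion lay within 0.05 of 0 in most events with many reads, and CLK1 and DDX42 stood apart from those with a like number of reads.

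**Figure D5:**
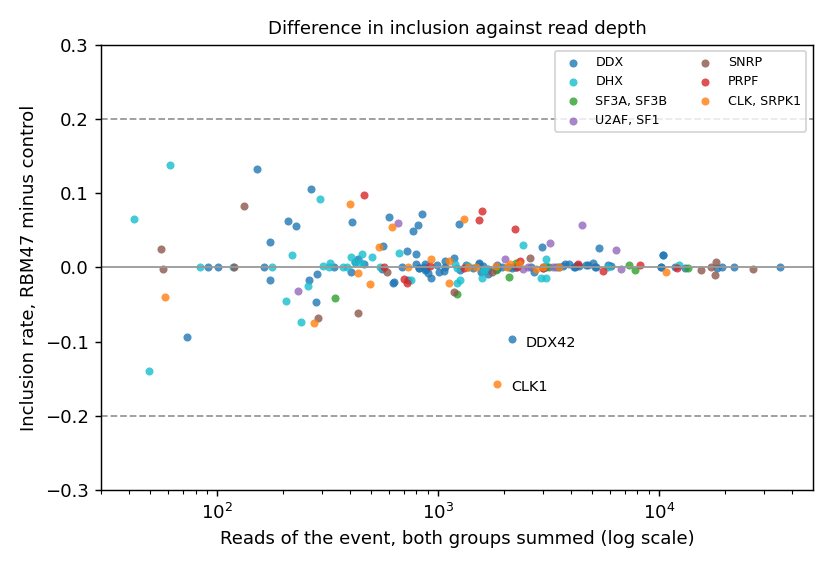
Difference in inclusion rate (RBM47 minus control, fraction) against the reads of the event summed over both groups (log scale), 1 point per event, coloured by gene group, with dashed lines at differences of 0.2. All 210 points lie between the dashed lines, the spread narrows with reads, and CLK1 (-0.157) and DDX42 (-0.0967) stand below the other points near their depth.

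As a comparison, 45 other genes of the spliceosome and RNA helicase families in the table had 117 events, 21 of them tested. Of these 21, 0 had a limma adjusted p under 0.05, against 2.23% of all tested events. An unadjusted limma p under 0.05 was seen in 3 of the 21 (in PUF60, EIF4A2 and SRPK2), against 12.0% of all tested events. The study criteria were met by 1 of the 117, against 1.40% of all events. It was in PUF60, a factor of pyrimidine tract recognition, at 0.705 ± 0.0641 in control and 0.239 ± 0.209 in RBM47 cells on 120 and 57 reads. Its unadjusted Fisher p was 0.0425 and its limma adjusted p was 0.207. A deeper PUF60 event, on 2486 and 2547 reads, went from 0.675 ± 0.0355 to 0.618 ± 0.00767 (limma adjusted p = 0.438).

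Over the whole table, the correlation of rates between samples lay from 0.952 to 0.974 (Pearson's r across events, which are not replicates). RBM47 replicate 2 had rates of exactly 0 or 1 in 14.8% of all tested events, against 6.08% to 7.63% in the other samples, and in 2 of the 36 tested events described here. Of all rows, 5.63% did not carry their own rates, and 10 of these 210 rows were among them.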

How the data were processed

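Polyadenylated RNA of 6 cultures was sequenced (TruSeq). The authors deposited 1 table of cassette exon events with an inclusion rate per sample (fraction), group averages (fraction), and read counts summed per group and isoform. It also holds the authors' rate difference, odds ratio and p-value, which were not used. The labels name TopHat, and the study's methods STAR and hg19 for cell lines. The build of the table's coordinates is not given in the sources used here. Depth per sample is unknown. Where the rates of a row did not average to its averages (tolerance 3e-09), rates were taken from the row that did, for 10 events by both averages. Over these 10, the sign of the summed-read difference equalled that of the matched rates in 10 and of the rates in the row in 6. Fisher's exact test (two-sided, scipy 1.17.1) used the read totals. limma 3.58.1 (R 4.3.3) used arcsine square root rates and let the variance follow log2 reads, and was tested on simulated data. Exons and sequences come from GENCODE lifted to GRCh37. Of 72 symbols, 69 matched and 3 matched by an older name. Groups came from sample titles. 1 gene that the choice by symbol selects is not reported here.

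Genes, lists and the form of the limma test were chosen with earlier results of these data known. Named were, within a gene group, events past a threshold, the 5 with the lowest limma p, the 3 with the most reads, and for CLK, SRPK1, SF1, SF3B1 and U2AF genes the event nearest the middle rate. Alternatives covered thresholds, transformations, row matching and omitted replicates.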

Additional observations from a re-analysis of the deposited data

How the results depend on the processing

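Under the study criteria 0 events were called. A minimum difference of 0.1 gave 1 higher (DDX60L) and 1 lower (CLK1). Rates from summed reads gave 2 lower (SNRPA1 and the DDX42 row with a rate near 0), and rates in the row as deposited gave 1 higher and 1 lower (in DDX17 and PRPF4B). Leaving out any 1 replicate changed only the rates, since reads were summed per group and the Fisher p kept every sample. It gave 0 calls. For the limma calls, no minimum difference gave 1 lower (DDX42), and the other alternatives, each replicate left out included, gave 0. With all samples kept, all 210 events differed by less than the minimum of 0.2 in size. Alternatives that kept every sample and the 0.2 minimum could therefore only give 0, whatever their p-values. Their 0 calls do not show whether the result depends on those settings. The median difference was 0 over all 210 events and 0.0226 over those with a mean rate of 0.1 to 0.9. The replicate numbers did not pair the samples (correlations of deviations -0.0223, -0.00555 and 0.0141). With the replicate number as a block, the 0.2 minimum again left 0 events to call, and DDX42 had a limma adjusted p of 0.0975. Of 316 alternative values for the 36 named events, 7 lost a call without changing direction (DDX42), and 2 moved from summed reads (PRPF4B and SNRPA1). The sign of the difference was kept in 300 values and not in 16, which belong to 11 uncalled events, 3 of them from summed reads and 13 with a replicate left out. Without RBM47 replicate 2 the DHX33 difference was -0.0570, and without control replicate 2 that of the shallowest DHX30 event was -0.0833. The causes were not tested. Depth limits events with few reads, and counts per sample were not used here.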
